A study of Mus musculus with 235 samples.

Results

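Transcript counts of 6 genes of the neuroendocrine stress axis were followed through 8 punched regions of the mouse brain: Crh, Crhr1, Crhbp, Avp, Oxt and Trh. They were chosen by gene symbol and are 6 of the 27998 genes in the count table. All 6 symbols had a row.

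Corticotropin-releasing hormone, encoded by Crh, is made by parvocellular neurons of the hypothalamic paraventricular nucleus and drives release of corticotropin from the pituitary, which in turn drives release of glucocorticoids from the adrenal gland. Vasopressin (Avp) acts with it at the pituitary and, from magnocellular neurons, on water balance, whereas oxytocin (Oxt) from neighbouring magnocellular neurons acts on milk ejection, uterine contraction and social behaviour. Glucocorticoids are known to restrain this axis through feedback that includes lower Crh and Avp transcription in parvocellular neurons. Thyrotropin-releasing hormone (Trh) comes from another set of paraventricular neurons and controls the thyroid axis. Crhr1 encodes the main receptor for corticotropin-releasing hormone, and Crhbp encodes a secreted protein that binds the peptide and limits its access to receptors.

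The animals were 30 male C57Bl/6 mice of 3 months, with no genetic alteration named in the labels. The vehicle arm of 15 mice received saline and the dexamethasone arm of 15 mice received 10 mg per kg of dexamethasone, a synthetic glucocorticoid, both intraperitoneally, and tissue was taken after 4 h. Perfused, frozen brains were punched on coronal sections at 8 regions, which carry the labels PVN, AMY, PFC, CER, vDG, dDG, vCA1 and dCA1 and gave 235 libraries in 16 groups of 13 to 15. PVN stands for the paraventricular nucleus in the field, and a punch there also holds neighbouring tissue.

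The libraries held between 268538 and 1451422 counts (median 742957), so that 1 count was worth between 0.689 and 3.72 CPM, counts scaled to a common library size with TMM factors. Among genes that mark the labelled tissues, Otp, a transcription factor of paraventricular neurons, had at least 1 count in 28 of 29 PVN libraries and a median of 44.2 CPM there, but it does not set PVN apart from CER, where 28 of 30 libraries held it at a median of 58.4 CPM. Sim1, another gene of paraventricular neurons, did: it had counts in 13 of 14 vehicle PVN libraries (median 13.3 CPM) and a median of 0 in each other region. The libraries labelled CER went against that label. Gabra6 and Pcp2, the defining genes of cerebellar granule and Purkinje cells, each had counts in only 4 of 30 of them and peaked at 15.8 and 5.26 CPM. Genes chosen after their values were seen were high there instead: Tph2, of serotonin neurons, had a median of 59.2 CPM in CER and medians of at most 2.33 CPM in the other regions, and Slc6a5, of glycine neurons, had a median of 35.3 CPM. The CER values below therefore describe libraries carrying that label. The dCA1 label was not borne out by its markers either: Prox1, of dentate granule cells, had a vehicle median of 528 CPM in dCA1, against 422 CPM in dDG, 193 CPM in vDG and 105 CPM in vCA1, whereas Wfs1, of CA1 neurons, had 35.2 CPM in dCA1, 42.1 CPM in dDG, 60.3 CPM in vDG and 36.9 CPM in vCA1. The hippocampal regions are likewise named by their labels only. Conversely, at least 10 CPM of Gabra6 was found in 7 vDG libraries (up to 337 CPM), 1 vCA1 library (255 CPM), 1 PFC library (19.2 CPM) and 1 of the CER libraries (15.8 CPM), and the tests between regions and between arms were repeated without these libraries.

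Oxt and Avp arose by duplication of an ancestral gene and lie next to each other on chromosome 2 of GRCm38 (mm10), Oxt at chr2:130576173-130577054 on the plus strand and Avp at chr2:130580620-130582554 on the minus strand. Their exons are 3565 bases apart, and no exon of any of the 6 genes overlaps that of another gene in the count table. The coding sequence for neurophysin, the carrier protein cut from both precursors, is so alike that reads could in principle be shared. Across the GENCODE transcripts, the longest identical run was 127 bases, shown in capitals with 10 bases on each side; it runs across the junction of exons 1 and 2 in both genes.
Oxt, chr2:130576328-130576715, plus strand: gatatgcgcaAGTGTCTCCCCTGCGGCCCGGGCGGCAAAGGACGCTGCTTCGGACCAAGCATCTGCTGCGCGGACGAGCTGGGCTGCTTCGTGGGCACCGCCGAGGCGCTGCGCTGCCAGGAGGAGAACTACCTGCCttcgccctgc
Avp, chr2:130581133-130582411, minus strand: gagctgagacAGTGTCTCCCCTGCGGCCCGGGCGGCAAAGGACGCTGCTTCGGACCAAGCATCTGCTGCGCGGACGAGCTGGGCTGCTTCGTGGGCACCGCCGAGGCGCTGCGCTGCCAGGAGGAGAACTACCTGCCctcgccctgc
The run ends 255 bases before the end of the Oxt transcript and 307 bases before the end of the Avp transcript. The libraries were made from 3' ends and read for 75 bases, so a read wholly inside the run could not be assigned to either gene, while reads nearer the transcript ends could. How the authors treated reads with several matches is not given in the sources used here, and the part of such reads in the Oxt and Avp counts was not tested.

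Because several pairs of the peptide genes were correlated across PVN libraries, the 250 bases before the annotated start of 3 of them are shown, from the RefSeq table on GRCm38.p6, which matched 5 of the 6 members. The unmatched member was Crh, so its promoter was not searched. Capitals mark 3 words, each searched on both strands and so also shown as its reverse complement. AGAACA is a core motif of the glucocorticoid receptor. TGACG is the core of the cyclic AMP response element. AGGTCA is a core motif of several other nuclear receptors.
Oxt, chr2:130575919-130576168, plus strand: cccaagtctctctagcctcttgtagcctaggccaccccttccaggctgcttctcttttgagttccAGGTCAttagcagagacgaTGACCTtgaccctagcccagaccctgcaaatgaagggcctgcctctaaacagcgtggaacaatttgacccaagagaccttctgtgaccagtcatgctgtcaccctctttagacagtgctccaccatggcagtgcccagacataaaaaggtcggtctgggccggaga
Avp, chr2:130582589-130582838, minus strand: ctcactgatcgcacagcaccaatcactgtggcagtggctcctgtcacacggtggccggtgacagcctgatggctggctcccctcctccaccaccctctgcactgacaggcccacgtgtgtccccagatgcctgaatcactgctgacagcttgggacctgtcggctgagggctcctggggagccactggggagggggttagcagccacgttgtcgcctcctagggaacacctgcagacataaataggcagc
Trh, chr6:92244651-92244900, minus strand: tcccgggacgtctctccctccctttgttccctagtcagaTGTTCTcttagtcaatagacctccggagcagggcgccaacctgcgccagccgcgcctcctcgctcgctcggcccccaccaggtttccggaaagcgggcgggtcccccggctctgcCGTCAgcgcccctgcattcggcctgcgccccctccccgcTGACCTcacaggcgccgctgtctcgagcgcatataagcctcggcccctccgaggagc
The Oxt window held AGGTCA or its complement at 2 places, beginning 185 and 166 bases before the start. The Trh window held each of the 3 words at 1 place, and the Avp window held none of these letters. Of 32851 windows of the same length in the table, 16.1% held AGAACA, 17.8% held TGACG and 14.0% held AGGTCA on either strand.

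Oxt, Avp and Trh were concentrated in PVN. In the 14 vehicle PVN libraries Oxt ran from 4.93 CPM through a median of 117 CPM to 1456 CPM. In the 15 vehicle AMY libraries it ran from 1.62 to 165 CPM around a median of 7.14 CPM, and in the 6 remaining regions its median lay between 0.689 and 3.29 CPM. The lowest PVN libraries therefore fell inside the vehicle range of every other region but vDG, although the PVN median was above the highest vehicle library of each region but AMY.

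Avp followed the same map at lower counts. Its vehicle PVN levels ran from 3.22 through 34.6 to 466 CPM, and its AMY levels from 0 through 8.93 to 546 CPM, the highest of these coming from 1 library. Elsewhere its median was at most 2.09 CPM. Trh (chr6:92242061-92244650, minus strand) ran from 6.24 through 47.2 to 127 CPM in PVN and from 2.38 through 6.86 to 36 CPM in AMY, and its median was at most 1.84 CPM in the other regions.

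These differences between regions were tested in the vehicle libraries with edgeR's quasi-likelihood test, the animal as a block, over 10451 genes. Of those genes, 21.0% differed between PVN and AMY at an adjusted p under 0.05, 24.6% between PVN and CER, 47.4% for dCA1, 43.3% for dDG, 43.3% for PFC, 37.3% for vCA1 and 34.0% for vDG. Against that background, Oxt, Avp and Trh were higher in PVN than in each of the 7 regions. The smallest differences were those with AMY: 2.87 ± 0.285 (log2, SE) for Oxt with an edgeR adjusted p of 5.74e-15, 2.37 ± 0.248 for Trh with an edgeR adjusted p of 5.77e-14, and 1.40 ± 0.342 for Avp with an edgeR adjusted p of 9.88e-04. Against the other 6 regions the log2 difference ranged from 5.69 to 7.15 for Oxt, from 4.49 to 6.89 for Avp and from 4.02 to 5.99 for Trh. The Avp difference from AMY did not pass without the animal term (0.80, edgeR adjusted p of 0.157). Within each of 8 punching dates and plates with vehicle libraries enough to compare, batches that share libraries, the mean of log2 CPM was higher in PVN than in each of the 7 regions in 8 of 8 for Oxt and Trh, and likewise for Avp except against AMY, where it was higher in 7 of 8.

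Crh (chr3:19693401-19695396, minus strand) had another order. It was highest in AMY, where vehicle libraries ran from 11.6 through 27.4 to 85.0 CPM, and the libraries of PVN ran from 2.50 through 18.4 to 40.4 CPM. Crh is known in neurons of the central amygdala and in cortical interneurons as well as in the hypothalamus. Its median was 10.0 CPM in PFC, 8.48 CPM in CER, 6.93 CPM in vDG and between 4.49 and 5.63 CPM in vCA1, dDG and dCA1.

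Crh was lower in PVN than in AMY by edgeR (log2 difference -0.93 ± 0.251 SE, adjusted p of 0.00308). It was higher in PVN than in dCA1, dDG, vCA1 and vDG, by 1.88, 1.82, 1.59 and 1.32 on the log2 scale. Its differences from CER (0.69, edgeR adjusted p of 0.0771) and PFC (0.56, edgeR adjusted p of 0.0984) did not pass. In the dexamethasone libraries the AMY difference was -0.45 with an edgeR adjusted p of 0.160.

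The binding protein and the receptor had few counts. Crhbp (chr13:95431371-95444831, minus strand) was highest in vCA1, from 4.99 through 13.6 to 23.5 CPM over 14 vehicle libraries, followed by PFC with 4.24, 9.38 and 23.3 CPM as lowest, median and highest. In PVN it ran from 1.31 through 4.44 to 9.70 CPM, at most 7 counts in a library. Crhbp was lower in PVN than in vCA1 (-1.41 ± 0.313, edgeR adjusted p of 1.02e-04), vDG (-1.17 ± 0.319, edgeR adjusted p of 0.00203) and PFC (-1.06 ± 0.318, edgeR adjusted p of 0.00384), and did not pass against the other 4 regions. Without the libraries of at least 10 CPM Gabra6 the vCA1 and vDG differences were -1.46 and -1.35 for Crhbp and 1.58 and 1.24 for Crh, and all of these passed.

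Crhr1 (chr11:104132855-104175523, plus strand) had a median of at most 8.31 CPM in vehicle libraries of any region, and it passed the filter on low counts in no region. By median PFC held the most, from 1.66 through 8.31 to 15.0 CPM over 15 vehicle libraries, and PVN among the least, from 0 through 1.35 to 5.81 CPM with 4 of 14 libraries at 0. The highest Crhr1 value of all was 22.6 CPM (17 counts) in the vehicle CER library of replicate 6, and no vehicle CER library had a count of Gabra6. The vDG and vCA1 maxima of Crhr1 sat in libraries with Gabra6: 19.5 CPM in the vehicle vDG library of replicate 15, with 170 CPM of Gabra6, and 12.4 CPM in the vehicle vCA1 library of replicate 15, with 255 CPM. Without the libraries of 10 CPM Gabra6 or more, the vehicle maximum was 9.86 CPM in vDG (11 libraries) and 5.75 CPM in vCA1 (13 libraries). Crhr1 is known to be abundant in cerebellum. The part of cerebellar cells in these values was not tested.

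**Figure D1:**
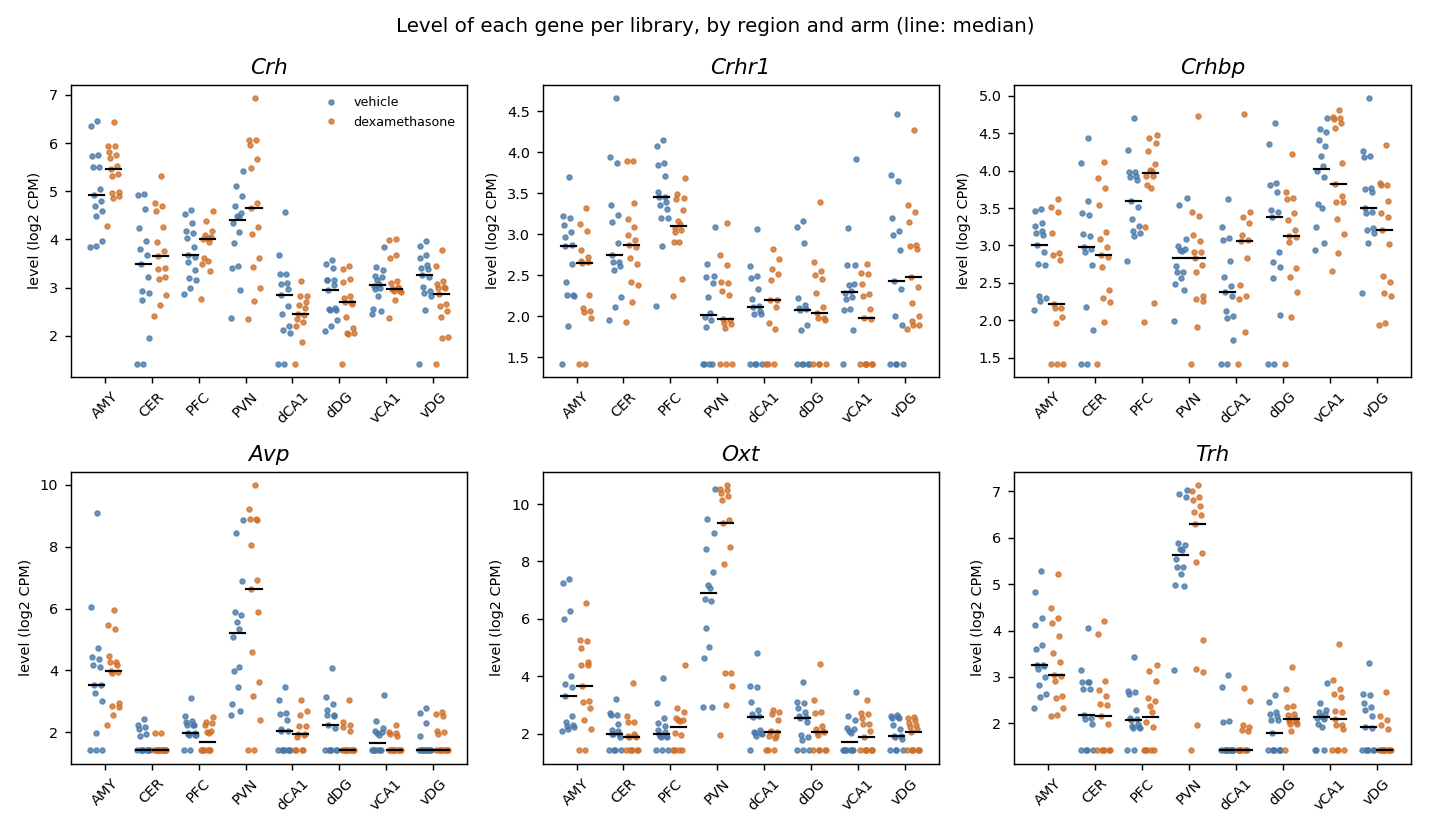
Level of the 6 genes in each of the 235 libraries, as log2 CPM with a prior count of 2, by region along the horizontal axis, with vehicle in blue, dexamethasone in orange and a black line at the group median. Oxt, Avp and Trh stand high in PVN with a spread from background to their highest values, Crh is highest in AMY and PVN, and Crhr1 and Crhbp are low in every region.

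The order of regions for each gene was tested between neighbours, on log2 CPM of the same animals, by sign-change permutation (100000 draws, two-sided, Benjamini-Hochberg over 42 tests). That order was set by the mean log2 CPM of the same vehicle libraries. The pairs thus came from the values tested, and the p-values are no independent test of the order. Only 5 of these 42 steps passed. Trh was higher in PVN than in AMY by 2.12 (14 of 14 animals, permutation adjusted p of 0.00630) and higher in AMY than in CER by 1.12 (14 of 15 animals, permutation adjusted p of 0.0104). Oxt was higher in PVN than in AMY by 2.76 (12 of 14 animals, permutation adjusted p of 0.0104). Avp was higher in AMY than in dDG by 1.55 (12 of 15 animals, permutation adjusted p of 0.0354), and Crh was higher in AMY than in PVN by 0.77 (12 of 14 animals, permutation adjusted p of 0.0309).

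The step of Avp from PVN to AMY, 1.17 with 11 of 14 animals, did not pass in this test (permutation adjusted p of 0.492), unlike in the edgeR fit. None of the 7 steps passed for Crhr1 or for Crhbp. Without the libraries of at least 10 CPM Gabra6, the step of Crhbp from vDG to dDG passed (0.88, 9 of 11 animals, permutation adjusted p of 0.0342). In log2(CPM + 1) the Avp step from AMY to dDG had a permutation adjusted p of 0.0592.

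High Oxt in vehicle AMY libraries was limited to a few punches. The 4 vehicle libraries highest for Oxt held 165, 150, 75.1 and 60.5 CPM (replicates 1, 10, 13 and 5), and the 11 others held at most 13.4 CPM. The highest dexamethasone library held 90.6 CPM (replicate 5). The highest of all, vehicle replicate 1, also held 546 CPM of Avp, 36.0 CPM of Trh, 33.7 CPM of Otp and 11.6 CPM of Sim1, each the highest value of that gene in the 30 AMY libraries, whereas its Crh level of 11.6 CPM was the lowest of all 30. The next 3 libraries by Otp, at 27.1, 22.9 and 20.5 CPM, were again among those 5 highest for Oxt. Otp and Sim1 mark neurons of the paraventricular nucleus and are also known in parts of the medial amygdala. In punched tissue, fewer cells of a type and less RNA per cell cannot be told apart, here and in every result that follows.

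Within PVN, the peptide genes were among the most variable transcripts. The SD of log2 CPM over the 14 vehicle libraries was 2.29 for Oxt, exceeded by 1 of 9273 genes, and 2.00 for Avp, exceeded by 2, against a median of 0.293 over all genes tested there. For Trh it was 0.984 (20 genes larger) and for Crh 0.858 (41 genes larger). Over the 15 dexamethasone libraries the SD was 3.25 for Oxt, the largest of all 9273 genes, 3.01 for Avp, 1.98 for Trh and 1.40 for Crh, against a median of 0.323.

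The dexamethasone libraries fell into separate sets. In 5 of them (replicates 1, 2, 5, 11 and 13) Oxt lay between 1.21 and 14.6 CPM, and in the other 10 between 240 and 1624 CPM, a gap of 3.81 on the log2 scale that took up 43.7% of the range. The same 5 libraries were the lowest for Avp (0 to 9.64 CPM against 21.5 to 1018 CPM) and for Trh (0 to 11.2 CPM against 41.7 to 138 CPM), and both sets were complete. Crh overlapped, from 2.43 to 14.6 CPM in the 5 and from 9.54 to 119 CPM in the 10. In the vehicle arm the largest gap in Oxt was 1.71, 22.6% of the range, with 2 libraries below it (replicates 8 and 14).

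**Figure D2:**
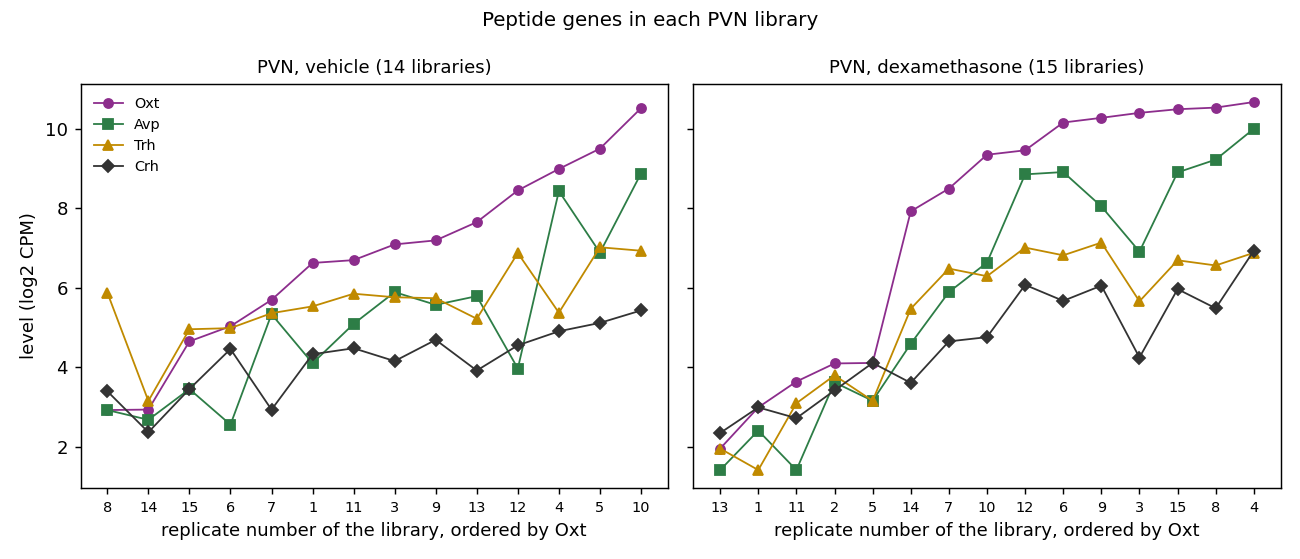
Level of Oxt, Avp, Trh and Crh (log2 CPM, vertical axis) in each PVN library, ordered by Oxt within the 14 vehicle libraries on the left and the 15 dexamethasone libraries on the right, with replicate numbers along the horizontal axis. The 5 dexamethasone libraries on the left of their panel are low in all of Oxt, Avp and Trh, and the vehicle libraries form a gradient.

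Other values of those 5 libraries stood beside this split. Their Otp ran from 0 through 20.9 to 41.8 CPM, below the 48.9 to 142 CPM of the 10, while the vehicle libraries ran from 6.45 through 39.3 to 121 CPM. Their hypothalamic marker level, the mean log2 CPM of 12 genes that mark hypothalamic tissue and leave out the members, had a median of 7.21 against 7.71 in the 10 and 7.32 in the vehicle libraries. Those 12 genes were not confined to PVN. Their summed CPM had a vehicle median of 4061 in PVN, 2901 in AMY, 2212 in CER and 998 to 1767 elsewhere. The level therefore measures paraventricular content only coarsely. RIN, a score of RNA integrity, ran from 4.4 through 5.0 to 7.3 in the 5 libraries and from 5.1 through 6.3 to 7.4 in the 10, with a vehicle median of 6.05. Library totals had a median of 502424 counts in the 5 against 786161 in the 10, with overlapping ranges. The 5 came from 4 of 5 punching dates and 3 of 4 plates. Their part in the split was not tested.

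Summed levels of other cell lists overlapped between the 5 and the 10. In the 5, the 7 thalamus markers summed to 408 to 1444 CPM (median 874), against 694 to 1833 CPM (median 1118) in the 10 and 484 to 2040 CPM (median 1551) in the vehicle libraries. Sums of the 6 microglia markers, at most 209 CPM in the 5 and at most 212 CPM in the 10, lay below the 222 to 299 CPM of the vehicle libraries, and so did those of the 6 endothelium markers (215 to 302 and 197 to 277 against 306 to 416 CPM). Both sums also had lower medians under dexamethasone in every other region. For microglia the medians were 300 against 522 CPM in AMY and 226 against 370 CPM in PFC. The 6 neuron markers summed to 2654 to 4658 CPM in the 5 and 2841 to 3996 CPM in the 10. Ependyma markers summed to 11.8 to 54.6 CPM (median 16.7) in the 5 and 10.8 to 108 CPM (median 48.8) in the 10, with a vehicle median of 20.9 CPM. In the same order, the medians were 24.3, 39.6 and 58.8 CPM for suprachiasmatic markers and 70.7, 46.2 and 35.0 CPM for choroid plexus markers. The part of these lists in the split was not tested. None of the 6 neuron, 12 hypothalamic or 7 thalamus markers was at 0 counts over the 5.

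Relations between peptide genes were measured by library, apart in the 14 vehicle libraries and in the 10 dexamethasone libraries above the gap, since a correlation over separate sets has no clear meaning. That choice was made after the values were seen. The 10 were picked by their Oxt level, which narrows its range, so relations with Oxt in that set are bound by the cut. Over 30 relations (15 pairs of members in 2 sets) p-values came from 100000 permutations with Benjamini-Hochberg adjustment. In the vehicle libraries Avp and Oxt varied together, with r of 0.856 (permutation p of 6.00e-05, adjusted 0.00135) and rho of 0.846 (permutation p of 2.70e-04, adjusted 0.00290). Crh and Oxt did so with r of 0.849 (permutation p of 9.00e-05, adjusted 0.00135) and rho of 0.846 (permutation p of 2.10e-04, adjusted 0.00290). Without the 2 libraries farthest from the median of the x gene these were 0.796 and 0.861.

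Further vehicle pairs passed for Pearson's r but not for Spearman's rho. Crh and Trh had r of 0.759 (permutation adjusted p of 0.00960) and rho of 0.640 (permutation adjusted p of 0.0857), and r of 0.597 (permutation adjusted p of 0.154) without the 2 farthest libraries. Oxt and Trh had r of 0.724 (permutation adjusted p of 0.0126) with rho of 0.582 (permutation adjusted p of 0.107). Crh and Avp had r of 0.652 (permutation adjusted p of 0.0382) with rho of 0.622 (permutation adjusted p of 0.0857). Avp and Trh did not pass (r of 0.517, permutation adjusted p of 0.156).

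In the 10 dexamethasone libraries Crh followed Avp (r of 0.915, permutation adjusted p of 0.00322) and Trh (r of 0.898, permutation adjusted p of 0.00220), and Avp followed Oxt (r of 0.848, permutation adjusted p of 0.0120) and Trh (r of 0.760, permutation adjusted p of 0.0379). Spearman's rank correlation was 0.733 for Crh and Avp (permutation adjusted p of 0.0857), 0.927 for Crh and Trh (permutation adjusted p of 0.00290), 0.855 for Avp and Oxt (permutation adjusted p of 0.0204) and 0.612 for Avp and Trh (permutation adjusted p of 0.165). Leaving out the 2 farthest libraries left r of 0.811, 0.906, 0.498 and 0.654, of which only Crh with Trh still passed (permutation adjusted p of 0.00945), while the other 3 lost the call with 8 libraries left. Crh and Oxt (0.689) and Oxt and Trh (0.487) did not pass in this set, which was cut on Oxt. No relation of Crhr1 or Crhbp with any member passed in either set, with at most 7 counts of Crhbp and 4 counts of Crhr1 in a vehicle library.

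**Figure D3:**
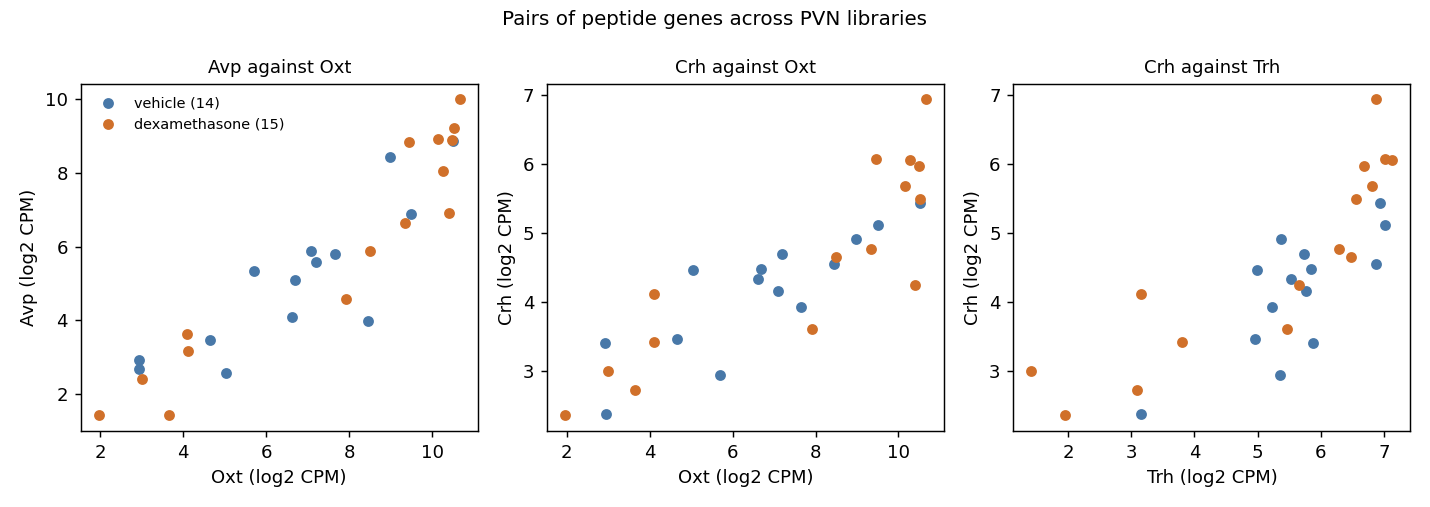
Pairs of peptide genes across PVN libraries, each point 1 library, both axes in log2 CPM, vehicle in blue (14) and dexamethasone in orange (15). The dexamethasone libraries form a low and a high group, most clearly along Oxt and Trh, and within the vehicle libraries Avp and Crh climb with Oxt.

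The relations were also measured with and within batches. With punching date and plate taken out of the 14 vehicle libraries, which leaves few degrees of freedom, Avp and Oxt kept r of 0.758 (permutation adjusted p of 0.0310), whereas Crh and Oxt had r of 0.0082 and Crh and Avp r of -0.046. By punching date, median vehicle Oxt was 134, 719, 30.1, 245 and 22.5 CPM on dates 1 to 5, with 3, 1, 3, 4 and 3 libraries, and Crh was 17.4, 32.0, 7.89, 22.0 and 8.29 CPM. Both were thus lowest on dates 3 and 5. The labels give date 5 another researcher code than all other dates, and date 1 another cryostat code. Researcher and cryostat therefore cannot be told apart from those dates. Within batches of at least 6 libraries, using values centred within each set, the Avp and Oxt correlation was 0.289, 0.924 and 0.744 on plates 1, 2 and 3 and 0.831 and 0.678 on dates 3 and 4. That of Crh and Oxt was -0.313, 0.780 and 0.876 on those plates and 0.490 and 0.664 on those dates. The other plate and the other 3 dates held too few libraries.

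The peptide genes were also set against the hypothalamic marker level, whose genes are not confined to PVN. In the vehicle libraries r with that level was 0.489 for Oxt, 0.408 for Avp, 0.491 for Crh and 0.483 for Trh, and in the 10 dexamethasone libraries 0.156, 0.399, 0.639 and 0.609. None of the 8 passed (permutation adjusted p of 0.125 for the smallest, and 0.122 for rho), and without the 2 farthest libraries the vehicle values were between 0.0729 and 0.217. After the marker level was taken out, vehicle r was 0.824 for Avp and Oxt (permutation adjusted p of 0.00660), 0.801 for Crh and Oxt (permutation adjusted p of 0.00680) and 0.568 for Crh and Avp (permutation adjusted p of 0.104). Of the 5 pairs that passed in the vehicle libraries, 3 passed on these residuals.

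The response to dexamethasone was then read in PVN against this spread. Of 9273 genes tested there, 5.67% differed between arms at an adjusted p under 0.05, and none of the 4 members that passed the filter on low counts (Crh, Avp, Oxt and Trh) was among them. By the labels, vehicle and dexamethasone libraries of the same replicate number shared the plate in 14 of 14 PVN pairs and the punching date in 13 of 14. With that number as a block, 6.64% of genes passed and Crh was among them (0.97 ± 0.276, edgeR adjusted p of 0.0259), while Avp (1.61, edgeR adjusted p of 0.0745), Oxt (1.76, edgeR adjusted p of 0.121) and Trh (0.34, edgeR adjusted p of 0.627) did not pass. Crh, at a vehicle median of 18.4 CPM, had 22.5 CPM as its median under dexamethasone, from 2.43 to 119 CPM. Its log2 fold change by edgeR was 0.92 ± 0.351 (SE), with a 95% interval of 0.195 to 1.64, a raw p of 0.0125 and an adjusted p of 0.148. The arms overlapped over the whole vehicle range.

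Avp had a dexamethasone median of 96.5 CPM, from 0 to 1018 CPM, and an edgeR log2 fold change of 1.39 ± 0.583 (raw p of 0.0217, adjusted p of 0.216). Oxt had a dexamethasone median of 647 CPM, from 1.21 to 1624 CPM, and an edgeR log2 fold change of 1.33 ± 0.591 (raw p of 0.0298, adjusted p of 0.265). Trh had a dexamethasone median of 75.6 CPM, from 0 to 138 CPM, and an edgeR log2 fold change of 0.28 ± 0.333 (adjusted p of 0.831). The 4 estimates were above 0 in this fit of counts. On the log2 CPM scale used for correlations and ratios, the arm means were 4.60 ± 1.40 (SD) under dexamethasone against 4.16 ± 0.858 under vehicle for Crh, and 5.23 ± 1.98 against 5.62 ± 0.984 for Trh, whose direction thus depended on the scale. In the edgeR fit, the 3 raw p-values under 0.05 did not survive adjustment over all genes. DESeq2 gave 1 raw p under 0.05 (Crh, 0.0438) and no adjusted p under 0.05. Without the vehicle library of replicate 10, the highest of its arm for Crh, Avp and Oxt, Avp (1.97, edgeR adjusted p of 0.0353) and Oxt (1.94, edgeR adjusted p of 0.0378) passed.

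The estimates were lower with marker levels in the fit. With the hypothalamic marker level as a covariate the log2 fold change by edgeR was 0.48 ± 0.291 for Crh, 0.73 ± 0.571 for Avp, 1.05 ± 0.525 for Oxt and -0.11 ± 0.273 for Trh. With the level of Sim1, Otp and Irs4, paraventricular genes, it was 0.43 for Crh, 0.53 for Avp, 0.87 for Oxt and -0.21 for Trh. The Oxt and Avp levels are themselves outcomes of this comparison and correlated with the other peptide genes, so fits with them describe the relation between genes and do not measure tissue content. With the Oxt level of each library as the covariate, Crh had 0.21 ± 0.247, Avp -0.17 ± 0.329 and Trh -0.43 ± 0.230, and with the Avp level Crh had 0.25 ± 0.225, Oxt 0.41 ± 0.336 and Trh -0.32 ± 0.257. None of these 14 estimates passed (smallest edgeR adjusted p of 0.383).

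Covariates of handling moved the estimates differently. With RIN Crh had 0.92, Avp 1.36, Oxt 1.25 and Trh 0.23, while with punching date and plate Avp had 1.88 ± 0.603 (edgeR adjusted p of 0.0516) and Oxt 1.95 ± 0.661 (edgeR adjusted p of 0.0730). With 8 surrogate variables, which sva estimates from the expression data, Avp turned to -0.80 ± 0.247 and passed (edgeR adjusted p of 0.0360), Crh had 0.13 ± 0.206, Oxt 0.06 ± 0.300 and Trh -0.35 ± 0.152. Those 8 variables accounted for 0.878 of the variance (R squared, 29 libraries) of the hypothalamic marker level, 0.829 of that of Oxt and 0.862 of that of Avp, so this fit also takes out most of the variation in the peptide genes themselves.

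**Figure D4:**
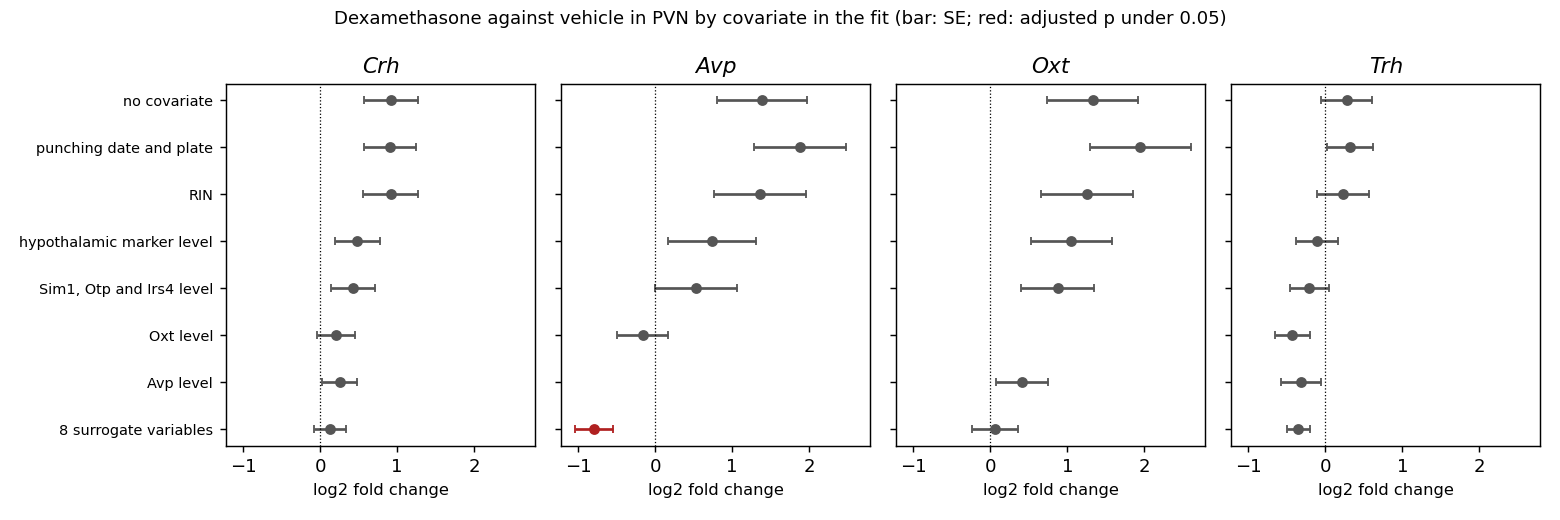
Log2 fold change of dexamethasone against vehicle in PVN by edgeR (horizontal axis, bars are SE) for Crh, Avp, Oxt and Trh, with the covariate in the fit along the vertical axis and red marking an adjusted p under 0.05. Estimates of Crh, Avp and Oxt are lower with marker or peptide levels in the fit than with no covariate, those of Trh are then below 0, and Avp is at -0.80 with 8 surrogate variables.

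The marker level did not differ detectably between arms. It was 7.48 ± 0.392 (SD, n = 15) under dexamethasone and 7.38 ± 0.335 (SD, n = 14) under vehicle, a difference of 0.105 log2 units (two-sided permutation p of 0.448), and none of its 12 genes passed in PVN (2 had a raw edgeR p under 0.05). Within each of the punching dates and plates that held at least 2 libraries of each arm, 8 batches in all, the arm difference was above 0 in 6 for that level, 6 for Avp, 5 for Crh, 4 for Oxt and 4 for Trh. For Oxt it ran from -1.74 to 5.17 log2 units. Of the other cell lists in PVN, Flt1 and Slco1a4 of endothelium and Cx3cr1 and P2ry12 of microglia fell, with 2 called of 4 tested and 2 of 5, against 5.67% of all genes. Rgs16 of the suprachiasmatic list (1 called of 2 tested) and Lef1 of the thalamus list (1 of 7) fell, and Ppp1r1b and Rgs9 of the striatum list (2 of 2) rose. The endothelium and microglia lists each had 2 genes that fell in each of the 8 regions. Striatum genes also rose in CER, PFC, vCA1 and vDG, 1 in each. These calls were thus not particular to PVN. In PVN, summed ependyma markers had a median of 42.9 CPM under dexamethasone and 20.9 CPM under vehicle. The medians were 33.4 and 58.8 CPM for suprachiasmatic markers and 1031 and 1551 CPM for thalamus markers, with overlapping ranges in each list. The part of these in the peptide results was not tested.

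Ratios between peptide genes were also compared by library. The Oxt to Avp ratio was 1.64 ± 1.05 (log2, SD, n = 15) under dexamethasone and 1.6 ± 1.19 (SD, n = 14) under vehicle (permutation p of 0.928). The Crh to Trh ratio was -0.63 ± 1.01 under dexamethasone and -1.46 ± 0.651 under vehicle, a difference of 0.83 (permutation p of 0.0124, adjusted 0.0744). The Oxt to Trh and Avp to Trh ratios differed by 1.31 and 1.27 (permutation adjusted p of 0.0764 for each). Of the 6 ratios, none passed after adjustment, and the 3 with the smallest p all had Trh as denominator. These values pool the separate sets of dexamethasone libraries. In the 5 low ones, which held 0 to 7 counts of Trh, the prior count weighs on the ratio, and the Crh to Trh ratio had a median of 0.39, against -1.11 in the 10 others and -1.44 in the vehicle libraries. The Oxt to Trh ratio had a median of 0.54 in the 5, 3.24 in the 10 and 1.21 in the vehicle libraries.

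Outside PVN few members could be tested for a response, and none passed. In AMY, where 5.61% of 8611 genes were called, Crh ran from 16.6 through 41.1 to 84.6 CPM under dexamethasone, with a log2 fold change of 0.32 ± 0.244 (edgeR adjusted p of 0.688). In PFC, where 6.14% of 9198 genes were called, the log2 fold change was 0.09 for Crh and 0.24 for Crhbp, and in vCA1, with 5.46% of 9126 genes called, it was 0.06 for Crhbp (-0.0048 without the library high in Gabra6). No member passed the filter in CER (6.18% of 9035 genes called), dCA1 (4.72% of 8715), dDG (3.65% of 8548) or vDG (3.93% of 9311). Crhr1 did not pass the filter in any region. With no filter, its smallest raw p-values by edgeR were 0.0268 in PFC (log2 fold change -0.55) and 0.0320 in vCA1 (-0.99), with adjusted p of 0.284 and 0.308, and the highest vCA1 vehicle library was that with 255 CPM of Gabra6. Over all 6 members in the 7 regions outside PVN, DESeq2 had 5 raw p-values under 0.05 in 42 tests and no adjusted p under 0.05 (2 tests had no adjusted p), and edgeR had no raw p under 0.05 in 4 tests.

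Whether the response differed among the 8 regions was tested in 1 fit over all 235 libraries with the animal as a block. Of 11053 genes 1.26% passed, and none of the 5 members tested did. The smallest raw p was 0.0289 for Oxt (edgeR adjusted p of 0.536), followed by 0.0344 for Avp (edgeR adjusted p of 0.573). Avp was called when the AMY libraries were left out (edgeR adjusted p of 0.0137). Leaving out only the AMY vehicle library of replicate 1, with its 470 Avp counts, gave 0.295.

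Genes around the peptide systems passed the test in no region, where between 3.65% and 6.18% of all genes did, so that few calls were to be had from lists of this size. Of 18 partners and receptors, among them the urocortins, Crhr2, the vasopressin and oxytocin receptors, Trhr, Gal, Pdyn, Penk and Sst, 7 could be tested in PVN and 6 in AMY, and 0 passed in any of the 8 regions (5 of 44 edgeR tests had a raw p under 0.05). Of 12 genes of peptide processing and secretory granules, all 12 were tested in PVN and 0 passed (3 of 86 edgeR tests over the 8 regions had a raw p under 0.05), with a median log2 fold change of 0.00396 against -0.00324 over all genes tested. In PVN the largest estimate of both lists was that of Pcsk1, the convertase that cleaves many prohormones, at 0.45 ± 0.201 (edgeR adjusted p of 0.270), followed by Gal (galanin, a peptide of magnocellular and other hypothalamic neurons) at 0.33 ± 0.264 (edgeR adjusted p of 0.677). Outside PVN the partners with a raw edgeR p under 0.05 went in both directions. Estimates above 0 were those of Gal in AMY (0.74, edgeR adjusted p of 0.298) and of Penk, the enkephalin precursor, in CER (0.44, edgeR adjusted p of 0.0910). Estimates below 0 were those of Penk in dCA1 (-0.45, edgeR adjusted p of 0.162) and of Adcyap1r1, a receptor of the peptide PACAP, in dCA1 (-0.29, edgeR adjusted p of 0.0843) and CER (-0.19, edgeR adjusted p of 0.236).

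The genes most like each member were read from correlations of log2 CPM, given as a description. Over the vehicle libraries of all regions, which share their regional make-up, Oxt was closest to Avp (r of 0.847), Trh (0.815), Pmch (0.726), Isl1 and Cartpt, and Trh to Isl1 (0.839), Oxt (0.815), Pmch (0.812), Cartpt and Ecel1. Pmch encodes melanin-concentrating hormone of the lateral hypothalamus and Isl1 a transcription factor of several hypothalamic neuron types. Avp was closest to Oxt, Trh (0.741), Isl1, Chodl and Pmch. Crh was closest to Rgs2 (0.620), Oprk1, Dlx6, Pde4b and Elmo1, and Crhbp to Serpini1 (0.675), Rspo2, Gpr26, Ldb2 and Lonrf1, with no other member among the 5 nearest of either.

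Over the 29 PVN libraries, centred by arm, the 3 genes nearest to each of Crh, Avp, Oxt and Trh among 9272 were the other 3, at r from 0.820 to 0.919, and Otp came next for Avp (0.707), Oxt (0.770) and Trh (0.790), followed by Vwa5b1, Cnot11 and Phf2. For Crh the next were Tmem158 (0.783) and Hspa13 (0.733). These values include the 5 dexamethasone libraries that were low in Oxt, Avp and Trh. In the 14 vehicle libraries alone Avp and Oxt remained nearest to each other (0.856) and Oxt was nearest to Crh (0.849), but among the genes nearest to Trh, Crh ranked 43 and Avp 657.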

How the data were processed

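The members, motifs and gene lists were chosen with earlier results of these data known. Per the labels' protocols, punch RNA went into QuantSeq forward 3' libraries with unique molecular identifiers, read for 75 bases from 1 end. The submitters' processing notes name FastQC 0.11.4, cutadapt, UMI-tools 0.5.4, STAR 2.6.0a, featureCounts 1.6.4, DESeq2 1.30.1, R 4.0.5 and mm10; the strand setting is not given in the sources used here. The authors deposited raw counts per gene for 235 libraries and variance-stabilised log2 values for 228; the log2 values served only as an alternative for correlations.

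Genes passing filterByExpr were scaled by TMM and tested with edgeR 4.0.16 quasi-likelihood fits (limma 3.58.1, R 4.3.3), dexamethasone against vehicle per region, at a Benjamini-Hochberg adjusted p under 0.05; each SE was derived from the log2 fold change and its F statistic. The 95% interval of a response uses t with 27 degrees of freedom. Regions and their interaction were fitted with the animal as a block. CPM and log2 CPM (prior count 2) use TMM factors over all libraries. The PVN response fit was also run on simulated counts drawn around a common mean per gene and arm. That setting has no separate sets of libraries, so it does not bear on Oxt, Avp and Trh under dexamethasone. Replicate numbers recur in both arms and name different mice, but the labels give same-numbered libraries the same plate and, but for 1 number, the same punching date; their deviations from the group means had a correlation over 0.1 in 6 of 14 pairs in PVN, 4 of 14 in vCA1 and most pairs of the other regions (10 of 15 in CER and vDG, 10 of 14 in PFC, 10 of 13 in dCA1, 11 of 15 in AMY, 12 of 15 in dDG). The fit without the block stayed the main one, as fixed in the design. Totals of 268538 to 1451422 counts per library set the precision of each value.

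Named were the members, every gene of 2 lists (peptide partners; peptide processing) that passed in PVN or AMY, of which there was none, and the 5 genes most correlated with each member; other genes were named after their values were seen. The test of arm differences in correlation was not run, because the dexamethasone libraries fall into separate sets. Alternatives were DESeq2 1.42.0, other scalings, filters, covariates, sva 3.50.0 and left-out libraries. Python 3.11.15, numpy 2.4.6, scipy 1.17.1, pandas 2.3.3 and matplotlib 3.10.9 were used.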

Additional observations from a re-analysis of the deposited data

How the results depend on the processing

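Of 413 values under alternatives other than left-out libraries, 377 kept their direction and side of the threshold or, as counts of calls, stayed near the main count. Of the rest, 10 changed direction, 16 lost their call, 2 gained one, and 8 counts of calls moved further. With the replicate number as a block, Crh in PVN was 0.97 with an edgeR adjusted p of 0.0259, so 1 response was called in place of 0; the block changed no other call of a member's response. With surrogate variables, 1 response was called, Avp at -0.80, and Trh was at -0.35. Trh was also below 0 with the hypothalamic marker level (-0.11), the level of Sim1, Otp and Irs4 (-0.21), Oxt (-0.43) or Avp (-0.32) as covariate, and Avp was at -0.17 with Oxt; these last 4 were added after seeing the data, and the cause was not tested. Leaving out 1 library gave 0.72 to 1.09 for Crh, 1.07 to 1.97 for Avp, 1.19 to 1.94 for Oxt and 0.16 to 0.43 for Trh, and between 0 and 2 calls, the 2 without vehicle replicate 10. A minimum of 10 counts in every library left no PVN member to test. The interaction called 1 member, Avp, without the animal term (no replicate block; edgeR adjusted p of 0.0267) and 1 without AMY libraries, against 0. Without libraries of at least 10 CPM Gabra6, added after seeing the data, Crhbp in vCA1 was at -0.0048. Against other regions 29 differences were called, and 28 to 32 under the alternatives, with 28 without the animal term. Steps in region order that passed were 5, and 3 without pairing by animal (no replicate block). Of relations in PVN, 9 passed, and 5 without the 2 farthest libraries; in the vehicle set 5 passed, 3 after the marker level and 1 after date and plate, where Crh and Avp had r of -0.046. Oxt and Trh in the 10 dexamethasone libraries had r of -0.026 without the 2 farthest. The marker level by arm was 0.105, and between 0.0902 and 0.172 in the alternatives. Residuals after date and plate were not computed in the 10 dexamethasone libraries, which leave too few degrees of freedom, and the tests of the difference of correlations between arms were not run, because the dexamethasone libraries fall into separate sets. Crhr1 and Crhbp had medians of at most 10 counts in every group, a depth that limits their tests.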
